A study of Rattus norvegicus with 3 samples.

Results

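Interferon-response genes, which many cell types switch on when interferons bind their receptors, were followed in cardiomyocytes isolated from fetal Wistar rats. The set was defined by name, from a list chosen with earlier results of these data known. It held 41 gene symbols, and a probe set was taken when its annotation gave 1 of these symbols alone. This gave 36 genes with 50 probe sets, of 14218 genes in all. Ddx58, Oasl2, Gbp5, Xaf1 and Samd9l had no such probe set and are not analysed here under those symbols. The cells had been plated for 48 hours and then spent 24 hours in medium conditioned by skeletal myoblasts, the precursor cells of skeletal muscle, in medium conditioned by cardiac fibroblasts, the matrix-producing cells of the heart, or in fresh culture medium as the control. All 3 cultures were of the same strain, stage and cell preparation type, and each medium was represented by 1 Affymetrix expression array, so no difference below has a replicate, an error or a test. Because the cultures are isolated primary cells measured in bulk, fewer cells of a type and less RNA per cell cannot be told apart.

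Type I interferons signal through a receptor that includes Ifnar1, which leads to phosphorylation of Stat2. Stat2 acts with Irf9 in a complex that binds the interferon-stimulated response element (ISRE) in the promoters of antiviral genes. Interferon gamma uses a receptor that includes Ifngr1 and acts through another element, the gamma-activated sequence (GAS). Irf7 is itself induced by type I interferon and amplifies the response, while Usp18 restrains it. In the heart the pathway is known chiefly from antiviral defence, as in viral myocarditis.

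The promoters of 5 members are shown because the ISRE is the element through which type I interferons are known to switch on antiviral genes. They are the 5 lowest members, by the mean of both differences against control, whose promoter window held the core of that element. RefSeq promoter windows of build GRCr8, 300 bases long with 250 bases before and 50 after a start site, were found for 28 of the 36 members. The ISRE core was searched as GAAANNGAAA on both strands, and it was present in 14 of these 28 windows (50%) and in 3.92% of all 33465 windows. The longer form GAAANNGAAACT, which contains the core, was in 8 of 28 member windows and in 0.278% of all. The GAS, searched as TTCNNNGAA, was in 7 of 28 member windows and in 8.87% of all. A match is only a run of letters and is not a measured binding site. The start site of the window was the outer end of the annotated gene for 12 of the 28 members and lay inside the gene for 16. The 5 windows below, read 5′ to 3′ on the strand of the gene with ISRE cores in capitals, belong to Irf7 (chr1:205799974-205800273, minus strand), Ddx60 (chr16:33208790-33209089, minus strand), Bst2 (chr16:18254918-18255217, minus strand), Oas1a (chr12:41330216-41330515, plus strand) and Ifi27 (chr6:128355062-128355361, plus strand).
Irf7: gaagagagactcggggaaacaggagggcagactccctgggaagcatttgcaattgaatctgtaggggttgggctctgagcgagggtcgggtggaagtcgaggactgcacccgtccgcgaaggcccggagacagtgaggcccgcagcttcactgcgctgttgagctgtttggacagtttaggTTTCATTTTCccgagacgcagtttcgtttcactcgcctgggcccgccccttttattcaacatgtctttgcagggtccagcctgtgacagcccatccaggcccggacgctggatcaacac
Ddx60: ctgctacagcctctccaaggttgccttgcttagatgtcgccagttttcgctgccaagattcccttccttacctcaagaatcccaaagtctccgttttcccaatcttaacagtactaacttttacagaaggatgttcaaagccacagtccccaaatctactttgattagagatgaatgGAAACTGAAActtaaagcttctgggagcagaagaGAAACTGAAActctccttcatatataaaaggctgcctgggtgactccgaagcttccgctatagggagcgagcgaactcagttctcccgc
Bst2: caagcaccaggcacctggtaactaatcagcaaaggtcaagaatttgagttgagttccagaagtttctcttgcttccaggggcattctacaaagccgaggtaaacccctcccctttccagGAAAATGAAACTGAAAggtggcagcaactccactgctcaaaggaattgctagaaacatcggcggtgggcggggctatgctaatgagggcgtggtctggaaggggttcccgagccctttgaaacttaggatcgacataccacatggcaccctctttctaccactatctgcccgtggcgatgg
Oas1a: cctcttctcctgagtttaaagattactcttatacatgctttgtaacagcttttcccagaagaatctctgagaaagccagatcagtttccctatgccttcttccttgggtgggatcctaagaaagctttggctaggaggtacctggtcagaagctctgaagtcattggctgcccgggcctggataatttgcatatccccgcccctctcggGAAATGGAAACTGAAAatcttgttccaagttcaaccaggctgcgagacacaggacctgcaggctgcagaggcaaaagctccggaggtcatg
Ifi27: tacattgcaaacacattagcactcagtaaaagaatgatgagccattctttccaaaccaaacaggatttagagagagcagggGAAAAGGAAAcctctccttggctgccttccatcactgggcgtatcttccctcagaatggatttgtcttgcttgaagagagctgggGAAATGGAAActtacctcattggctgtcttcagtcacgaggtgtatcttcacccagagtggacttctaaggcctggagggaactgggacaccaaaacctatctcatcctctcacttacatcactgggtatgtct
In Irf7 the core starts 69 bases upstream of the start site and runs on the opposite strand. Ddx60 holds the core at 73 and again at 39 bases upstream, both followed by CT. In Bst2 and in Oas1a a pair of overlapping cores begins 131 and 41 bases upstream. Ifi27 has cores at 169 and 84 bases upstream. Of the 14 members with the core, 2 were at least 2-fold lower in myoblast medium and 4 in fibroblast medium than in control, against 0 and 0 of the 14 members whose window lacked it. Over all 14218 genes 0.844% and 2.60% were that much lower. Of the 14 without the core, 1 was at least 2-fold higher in fibroblast medium. The median log2 differences were -0.27 and -0.23 with the core, and -0.01 and 0.04 without it. These groups also differ in the kind of gene. Those without the core include Irf1, Irf3, Irf5, Irf8, Irf9, Stat2, Ifnar1 and Ifngr1, whereas Irf7 is the only transcription factor with it. Core and kind of gene cannot be told apart here, and genes outside the list that hold the core were not counted. The other 8 members, among them Mx2, Rtp4, Isg15 and Usp18, had no window. Of these 8, 4 were at least 2-fold lower in each conditioned medium, a larger share than among the 14 with the core. Their medians were -0.74 in both.

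**Figure D1:**
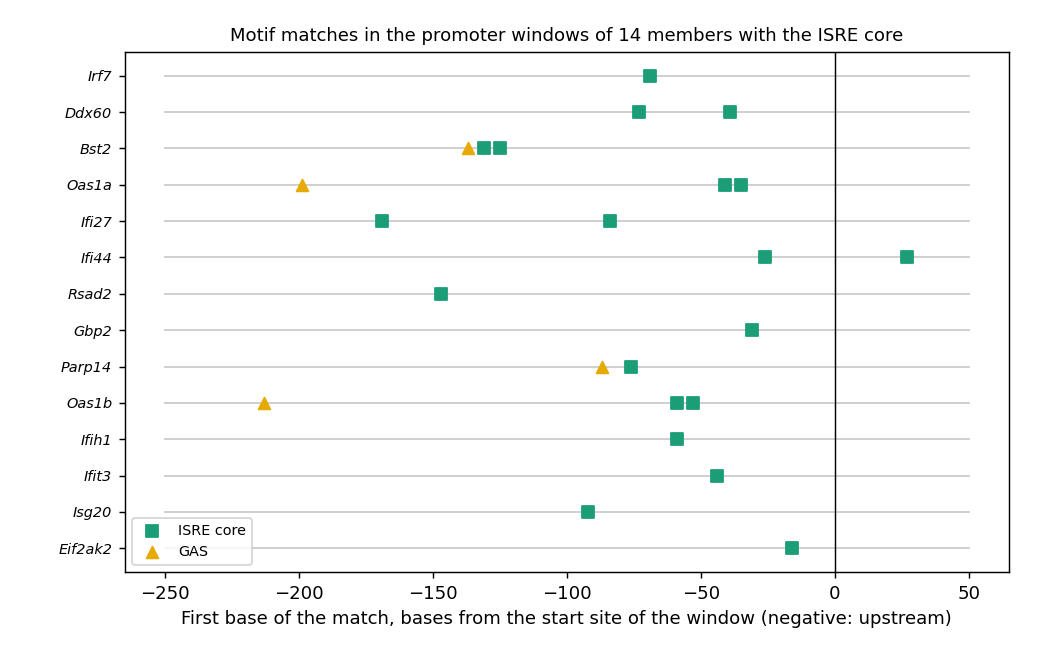
Positions of ISRE cores (squares) and GAS matches (triangles) in the promoter windows of the 14 members that hold the core, in bases from the start site of the window. Members run from the lowest mean difference against control (Irf7, at the top) to the highest (Eif2ak2), and the cores lie between 169 bases upstream in Ifi27 and 27 bases downstream in Ifi44.

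A few members differed strongly, and most of those were highest on the control array. In myoblast medium 6 of the 36 members (16.7%) were at least 2-fold lower than in control, against 0.844% of all 14218 genes, and 0 were at least 2-fold higher, against 1.35%. In fibroblast medium 8 members (22.2%) were at least 2-fold lower, against 2.60% of all genes, and 1 was at least 2-fold higher, against 4.26%. The median log2 difference of the members was -0.20 in myoblast medium and -0.12 in fibroblast medium, and that of all genes was 0.00 in each case. The members were chosen with earlier results of these data known, so these shares describe the list and are not a test of it. Both differences subtract the same control array, so a reading that was high in the control culture and readings that were low in the conditioned cultures cannot be told apart.

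Values below are log2 signals relative to the array that was in the middle for each probe set, so they carry no absolute level, and 1 is a 2-fold step. Blanks in the deposited values were read as 0, a meaning that the sources used here do not state. Of the 50 member probe sets, 34 had values on 2 arrays, and the blank was taken as the middle array. Another 14, among them those of Ddx60, Irf8, Ifih1, Eif2ak2 and Herc6, had a value on 1 array, and 2 had none. For these no single array was in the middle, and what their blanks stand for is not known. The control array was the highest of the 3 for 20 of the 36 members (55.6%), against 28.4% of the 12591 genes with any nonzero value. The myoblast medium array was the lowest for 17 members (47.2%), against 24.1% of those genes. The fibroblast medium array was the highest for 11 members (30.6%), against 34.9% of those genes, and the lowest for 7 (19.4%), against 38.7%. The myoblast medium array was the highest for 3 members (8.33%), against 26.8%, and the control array the lowest for 5 (13.9%), against 26.6%. The 42 probe sets for transcripts added to the samples as controls differed from -0.01 to 0.66 between myoblast medium and control, and from -0.68 to 0.59 between fibroblast medium and control. Below the lowest of them lay 25 members in myoblast medium and 10 in fibroblast medium, and above the highest 0 and 2. Their median difference was 0.29 in myoblast medium, and with arrays centred on them 11 members were at least 2-fold lower there, against 1.75% of all genes, and 0 were higher, against 0.668%. Taking the largest size of any of them, 0.66 and 0.68, as a limit in both directions, although no control transcript reached -0.66 in myoblast medium, 12 members were lower and 0 higher in myoblast medium, and 10 were lower and 1 higher in fibroblast medium. How many of all genes lay beyond the control transcripts was not counted, so these counts describe the members alone. At 1.5-fold, a slightly smaller limit, all genes were counted. There 12 members were lower in myoblast medium, against 2.86% of all genes, and 0 higher, against 3.77%. In fibroblast medium 10 were lower, against 6.97%, and 2 higher, against 9.09%. The lowest control transcript in myoblast medium, at -0.01, was close to 0. Below 0 lay 26 members there, and 5719 of all 14218 genes.

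**Figure D2:**
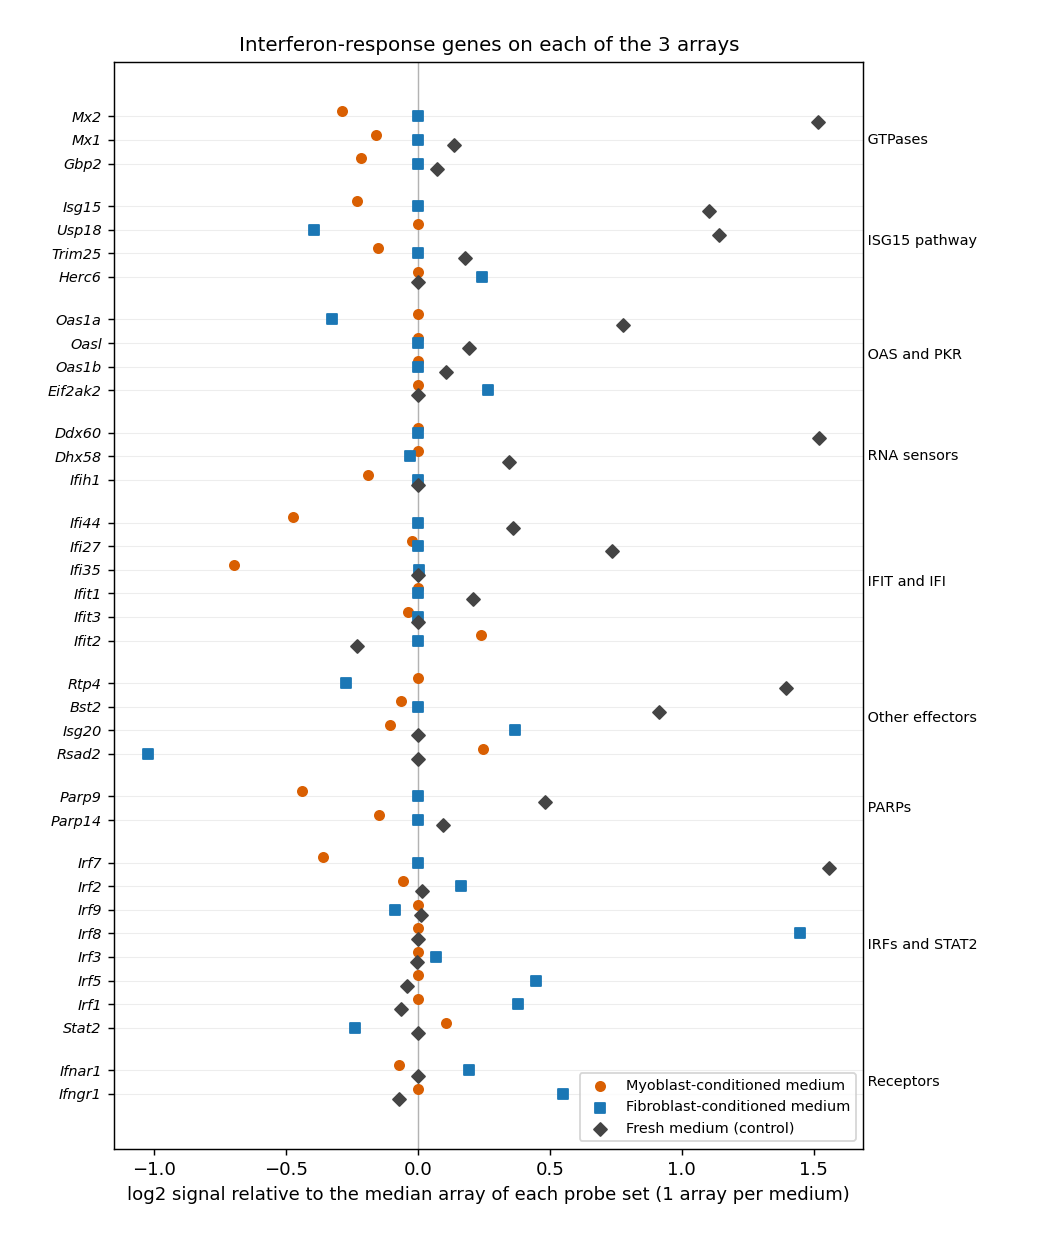
Signal of each of the 36 members on the 3 arrays, as log2 relative to the median array of each probe set and averaged over the probe sets of a gene. Points are single arrays (circle, myoblast medium, square, fibroblast medium, diamond, control), and the diamonds of Irf7, Ddx60, Mx2 and Rtp4 stand farthest to the right, from 1.39 to 1.56, while Irf8 is high in fibroblast medium alone, at 1.45.

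Among the GTPases, Mx2 stood apart from its relatives. Mx2, an interferon-induced dynamin-like GTPase that restricts viruses, read -0.29 in myoblast medium and 0.00 in fibroblast medium, against 1.52 in control. It was therefore 3.49-fold lower in myoblast medium (log2 difference -1.80) and 2.86-fold lower in fibroblast medium (-1.52). Its 2 probe sets gave -2.03 and -1.58 in myoblast medium, and -1.57 and -1.46 in fibroblast medium, so both had the same direction. Its paralog Mx1 read -0.16 in myoblast medium and 0.00 in fibroblast medium, against 0.14 in control, all close together. Gbp2, a guanylate-binding protein gene that responds to interferon gamma, had differences of -0.29 in myoblast medium and -0.07 in fibroblast medium.

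In the ISG15 pathway, Isg15 and Usp18 differed more from control than the ligase genes Herc6 and Trim25. Isg15, a ubiquitin-like protein that is attached to other proteins during infection, read -0.23 in myoblast medium and 0.00 in fibroblast medium, against 1.10 in control. It was 2.52-fold lower in myoblast medium and 2.15-fold lower in fibroblast medium. Usp18, the protease that removes ISG15 and that dampens receptor signalling, read 0.00 in myoblast medium and -0.39 in fibroblast medium, against 1.14 in control. It was 2.20-fold and 2.90-fold lower in these media. The conditioned arrays were thus close to each other for both genes and the control array lay above them. Herc6, which in mouse is the main ligase for ISG15, had differences of 0.00 in myoblast medium and 0.24 in fibroblast medium, and Trim25, a ubiquitin ligase acting on RIG-I, of -0.33 and -0.18.

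Among the nucleic acid sensors, Ddx60 had the largest differences. Ddx60, a helicase gene linked to RIG-I signalling, had a value on the control array alone, at 1.52, and both conditioned arrays were blank. With blanks read as 0.00 it was 2.87-fold lower in each conditioned medium, and these folds rest on that reading. Dhx58, which encodes the RIG-I-like receptor LGP2, read 0.00 in myoblast medium and -0.03 in fibroblast medium, against 0.35 in control. Its 3 probe sets ranged from -0.67 to -0.11 in myoblast medium and from -0.76 to -0.11 in fibroblast medium. Ifih1, which encodes the double-stranded RNA sensor MDA5, had differences of -0.19 in myoblast medium and 0.00 in fibroblast medium. RIG-I itself, listed as Ddx58, is annotated on this array under Rig1. That probe set read -0.35 in myoblast medium and 0.00 in fibroblast medium, against 0.41 in control, and it is counted only where stated.

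Among the oligoadenylate synthetase genes and PKR, Oas1a alone passed 2-fold against control, in fibroblast medium. Oas1a, an oligoadenylate synthetase that activates RNase L, read 0.00 in myoblast medium and -0.33 in fibroblast medium, against 0.78 in control. The log2 differences were -0.78 in myoblast medium and -1.10 in fibroblast medium. Its relatives, Oas1b and the synthetase-like gene Oasl, each had a value on the control array alone, at 0.11 and 0.19. Eif2ak2, the kinase PKR that halts translation on double-stranded RNA, read 0.00 in myoblast medium and 0.27 in fibroblast medium, against 0.00 in control. Probes of the closely related oligoadenylate synthetases may share signal, which was not tested.

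The IFIT and IFI genes stayed below 2-fold and differed among themselves. Ifi27, an interferon-induced membrane protein gene, read -0.02 in myoblast medium and 0.00 in fibroblast medium, against 0.74 in control, with differences of -0.76 and -0.74. Ifi44 read -0.47 in myoblast medium and 0.00 in fibroblast medium, against 0.36 in control. Ifi35 read -0.70 in myoblast medium and 0.01 in fibroblast medium, against 0.00 in control, so its myoblast array stood alone. The IFIT genes, whose proteins bind viral RNA, were closer to 0. Ifit1 had a value only in control, at 0.21, and Ifit3 only in myoblast medium, at -0.04. Ifit2 ran the other way, at 0.24 in myoblast medium and 0.00 in fibroblast medium, against -0.23 in control, and was the member with the highest difference in myoblast medium, at 0.47. Both of its probe sets were above control in each conditioned medium.

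Rtp4 and Bst2 were lower in each conditioned medium, while Rsad2 and Isg20 had other patterns. Rtp4, a receptor transporter that also acts against viruses, read 0.00 in myoblast medium and -0.27 in fibroblast medium, against 1.39 in control. It was 2.63-fold lower in myoblast medium and 3.18-fold lower in fibroblast medium, where it was the lowest member. Bst2, which encodes tetherin, a protein that holds budding viruses at the cell surface, read -0.07 in myoblast medium and 0.00 in fibroblast medium, against 0.91 in control. At -0.98 and -0.91 it lay just short of 2-fold. Rsad2, which encodes viperin, a radical SAM enzyme of the antiviral response, read 0.25 in myoblast medium and -1.02 in fibroblast medium, against 0.00 in control. It was 2.03-fold lower in fibroblast medium. Isg20, an exonuclease gene, read -0.11 in myoblast medium and 0.37 in fibroblast medium, against 0.00 in control.

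The related ADP-ribosyltransferase genes Parp9 and Parp14 were lowest in myoblast medium. Parp9 read -0.44 in myoblast medium and 0.00 in fibroblast medium, against 0.48 in control, and its difference in myoblast medium was -0.92. Parp14 had differences of -0.24 in myoblast medium and -0.10 in fibroblast medium. Neither passed 2-fold.

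Among the transcription factors, Irf7 was lower than control in both conditioned media and Irf8 was higher in fibroblast medium alone. The others stayed below 2-fold. Irf7 read -0.36 in myoblast medium and 0.00 in fibroblast medium, against 1.56 in control. It was 3.78-fold lower in myoblast medium, the 10th lowest of all 14218 genes, and 2.95-fold lower in fibroblast medium. Irf8, a factor of myeloid cells that is also induced by interferon gamma, had a value in fibroblast medium alone, at 1.45, and with the blanks read as 0.00 it was 2.73-fold higher there than in control. Irf1, an early target of interferon gamma, read 0.00 in myoblast medium and 0.38 in fibroblast medium, against -0.07 in control. Irf5, which acts downstream of Toll-like receptors, read 0.00 in myoblast medium and 0.45 in fibroblast medium, against -0.04 in control. The components of the ISRE-binding complex were near 0. Stat2 had differences of 0.11 in myoblast medium and -0.24 in fibroblast medium, and Irf9 of -0.01 and -0.10. Irf3, a constitutively expressed relative of Irf7, had differences of 0.00 and 0.07, and Irf2, which counters Irf1, of -0.07 and 0.15, with probe sets from -0.13 to 0.38 in fibroblast medium.

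Neither receptor gene passed 2-fold. Ifngr1 read 0.00 in myoblast medium and 0.55 in fibroblast medium, against -0.07 in control, and its difference in fibroblast medium was 0.62. Ifnar1 was covered by 6 probe sets that disagreed. Their mean difference was -0.07 in myoblast medium and 0.20 in fibroblast medium, and single probe sets ranged from -0.28 to 0.80 in fibroblast medium.

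**Figure D3:**
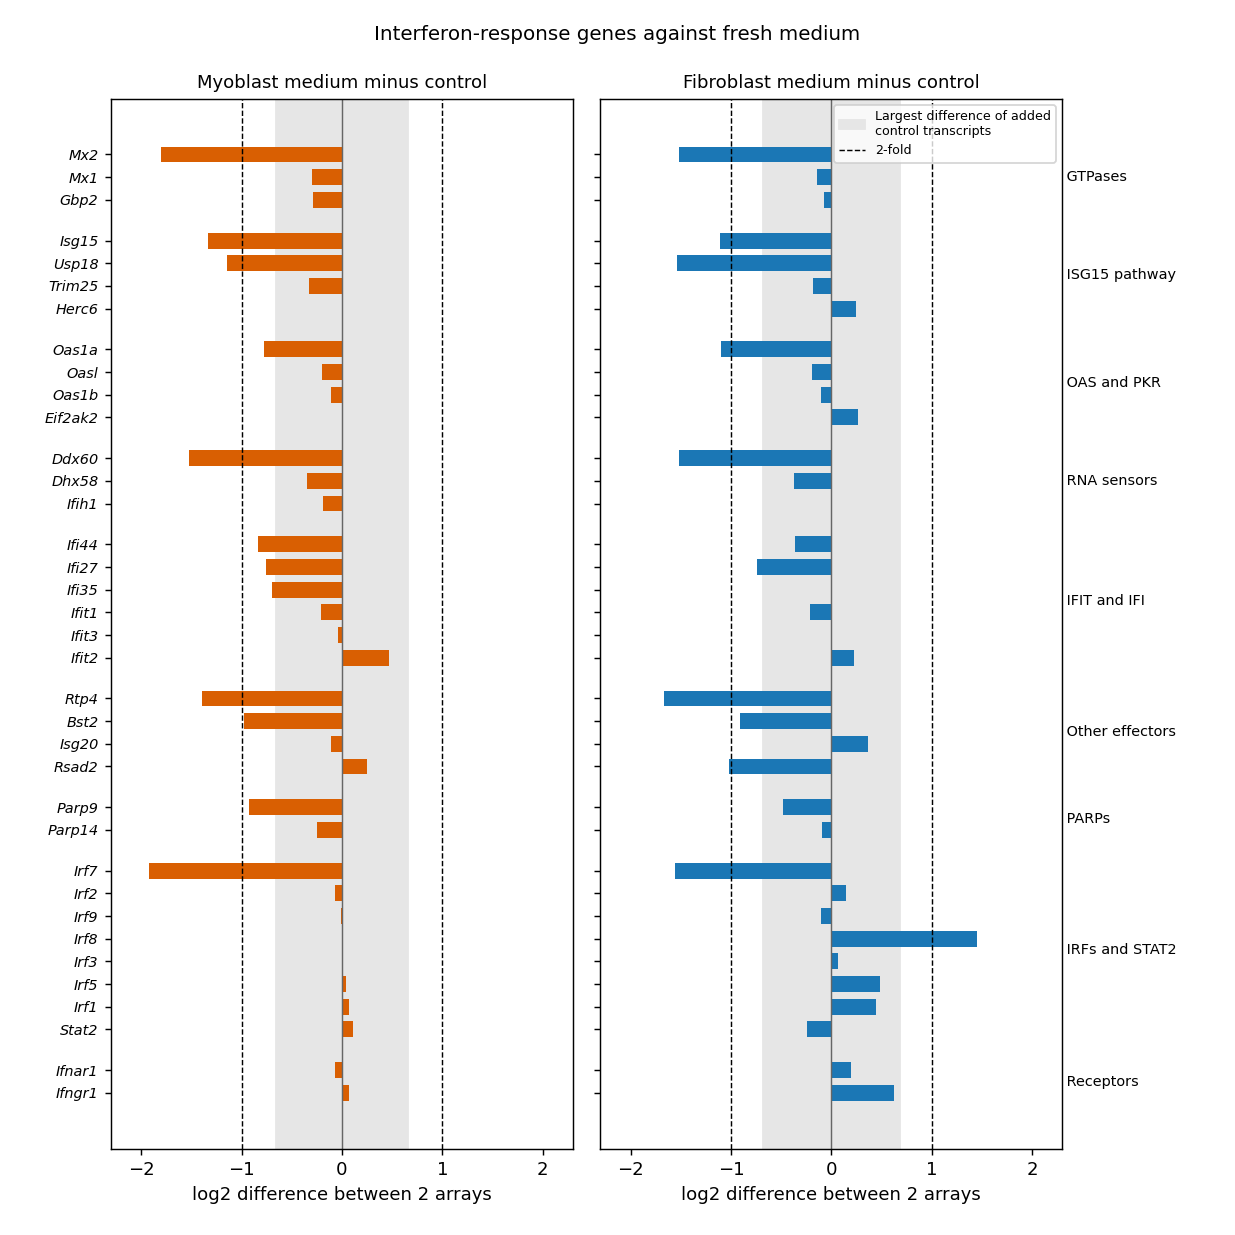
Log2 differences of the 36 members, myoblast medium minus control on the left and fibroblast medium minus control on the right, with 1 array for each medium. Dashed lines mark 2-fold and the grey band, drawn to both sides of 0, the largest size seen among added control transcripts, 0.66 on the left and 0.68 on the right, and the bars of Irf7, Mx2, Ddx60, Rtp4, Isg15 and Usp18 pass 2-fold to the left in both panels, which share the control array.

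Between the conditioned media themselves few members passed 2-fold, while most were lower in myoblast medium. Only Rsad2, 2.41-fold higher in myoblast medium than in fibroblast medium, and Irf8, 2.73-fold lower, passed 2-fold, which is 1 of 36 (2.78%) in each direction, against 2.12% of all genes higher and 3.94% lower. These shares are near those of all genes. With arrays centred on the added control transcripts the 2 counts were the same, against 1.36% of all genes higher and 5.77% lower. The median log2 difference was -0.16, with 24 members below 0, 8 above and 4 at exactly 0. Over all 14218 genes the median was 0.00, with 5593 below 0 and 6380 above. The 6 genes that were at least 2-fold lower in myoblast medium than in control differed between the conditioned media by -0.36 (Irf7), -0.29 (Mx2), -0.23 (Isg15), 0.00 (Ddx60), 0.27 (Rtp4) and 0.39 (Usp18). The added control transcripts ranged from -0.48 to 1.02 in this comparison. Below the lowest of them lay Irf8, Ifi35 at -0.70 and Ifngr1 at -0.55, and above the highest Rsad2 alone. How many of all genes lay beyond these limits was not counted. At 1.5-fold, 2 members were lower and 1 higher in myoblast medium, against 8.34% and 6.65% of all genes, so the members did not exceed the shares of all genes there.

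**Figure D4:**
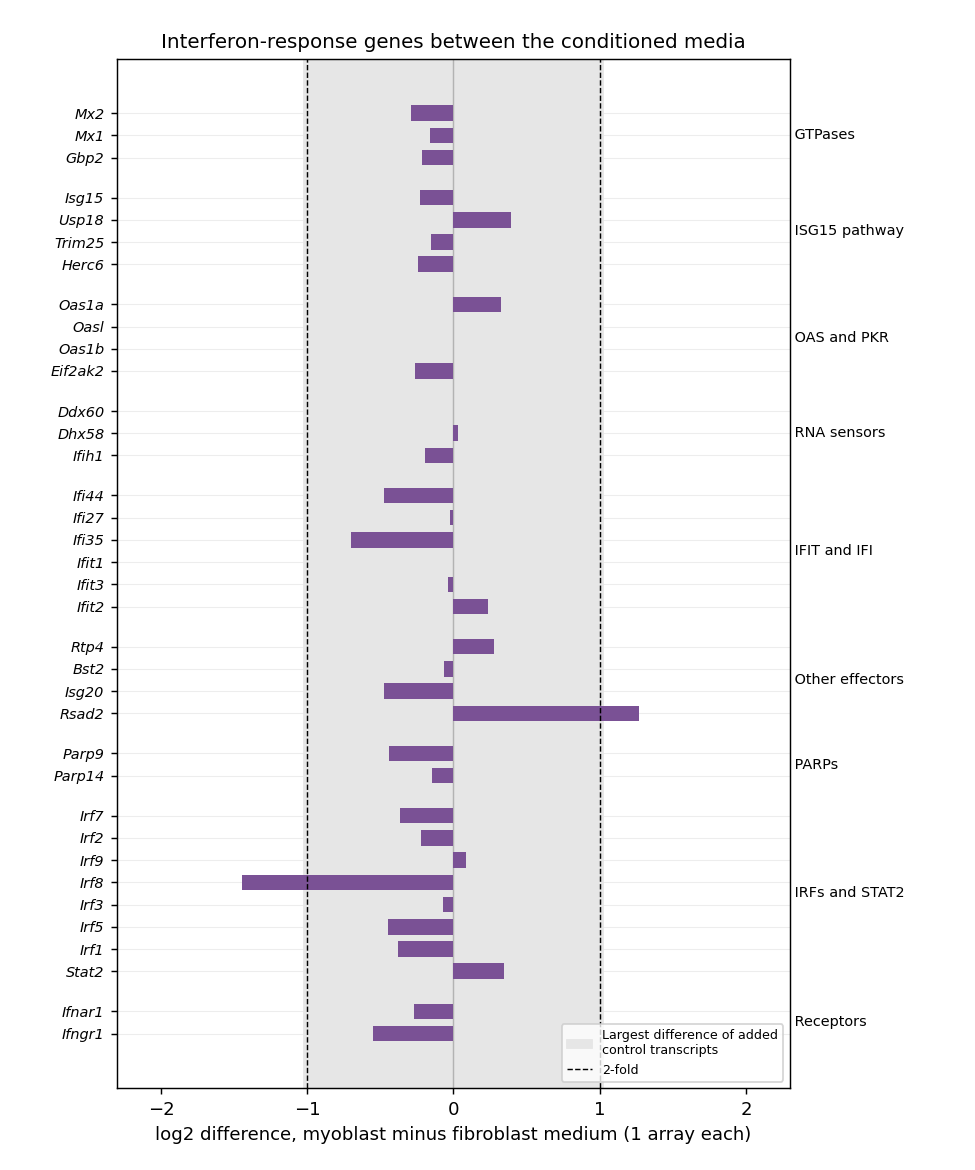
Log2 difference of each member, myoblast medium minus fibroblast medium, with 1 array each. Dashed lines mark 2-fold and the grey band, drawn to both sides of 0, the largest size seen among added control transcripts, 1.02, and only the bars of Rsad2 (1.27) and Irf8 (-1.45) leave the band.

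Other genes of the pathway showed smaller differences in myoblast medium and mixed ones in fibroblast medium. Of all genes, 0.844% were at least 2-fold lower and 1.35% higher in myoblast medium. In fibroblast medium these shares were 2.60% and 4.26%. Of the interferon genes, Ifnb1 and Ifnk had no value on any array and Ifng had one in control alone, at 0.22. Of 14 receptor and JAK-STAT genes, 0 passed 2-fold in myoblast medium and the median was 0.00. In fibroblast medium 1 of the 14 (7.14%) was at least 2-fold higher, the phosphatase gene Ptpn6 at 2.43, 0 were lower, and the median was 0.20. The kinase genes Jak2 and Jak1 had differences of 0.85 and -0.64 in fibroblast medium. Of 13 sensors and adaptors, 0 passed 2-fold in myoblast medium. In fibroblast medium 3 were at least 2-fold higher and 0 lower, and these were the RNA receptor Tlr7 at 2.05, the adaptor Sting1 at 1.37 and the adaptor Myd88 at 1.26.

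Of 43 further interferon-induced genes, 0 passed 2-fold in myoblast medium, where 30 were below 0 and the median was -0.20. In fibroblast medium 3 were at least 2-fold lower and 3 at least 2-fold higher (6.98% each), against 2.60% and 4.26% of all genes. The median was 0.02. The lower ones were Ifi44l at -1.25, the galectin gene Lgals9 at -1.11 and Dtx3l, which encodes the ubiquitin ligase partner of PARP9, at -1.04. The higher ones were Slfn2 at 1.62, the guanylate-binding protein gene Gbp7 at 1.41 and the cytidine deaminase gene Apobec3 at 1.11. Of 17 antigen presentation genes, which are known targets of interferon gamma, 3 (17.6%) were at least 2-fold higher in fibroblast medium, against 4.26% of all genes. Another 0 were lower, against 2.60%, and the median was 0.30. The 3 higher genes were the class II gene RT1-Da at 1.18 and the immunoproteasome genes Psmb8 at 1.09 and Psmb9 at 1.03. In myoblast medium the median of this list was -0.06 and 0 passed 2-fold.

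Markers of other cell types also differed between these arrays. For comparison, 0.844% of all genes were at least 2-fold lower and 1.35% higher in myoblast medium, and 2.60% and 4.26% in fibroblast medium. Among 20 markers of macrophages and leukocytes, 16 passed 2-fold upward in fibroblast medium and 0 downward, with differences from 0.08 to 5.41 and a median of 2.16. In myoblast medium 1 of the 20 was at least 2-fold higher and 0 lower, with differences from -0.94 to 1.13 and a median of -0.44. The median marker read -0.46 in myoblast medium and 2.16 in fibroblast medium, against 0.00 in control. Among 16 markers of endothelial cells, 5 passed 2-fold downward in myoblast medium (from -3.01 to 0.28, median -0.71) and 11 in fibroblast medium (from -5.65 to 0.83, median -2.02), and 0 were 2-fold higher in either. Of 17 cardiomyocyte markers, 1 was 2-fold lower and 1 higher in myoblast medium (median -0.16), and 5 were 2-fold lower and 0 higher in fibroblast medium (median -0.50). Of 14 fibroblast markers, 2 were 2-fold lower and 0 higher in myoblast medium (median -0.08), and 2 were lower and 3 higher in fibroblast medium (median 0.26). Of 8 smooth muscle markers, 3 in myoblast medium and 4 in fibroblast medium were 2-fold higher and 0 were lower. Of 14 skeletal myoblast markers, 0 passed 2-fold in either medium, and 3 (Chrnd, Tnnt1 and Myh8) were at 0 on all arrays. Each marker of the macrophage, endothelial and cardiomyocyte lists had a nonzero value on at least 1 array, but centred values do not show how strongly any was expressed, so the labelled cell type could not be checked against them. The part of these markers in the differences of Irf8, Tlr7 or the lower members was not tested.

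**Figure D5:**
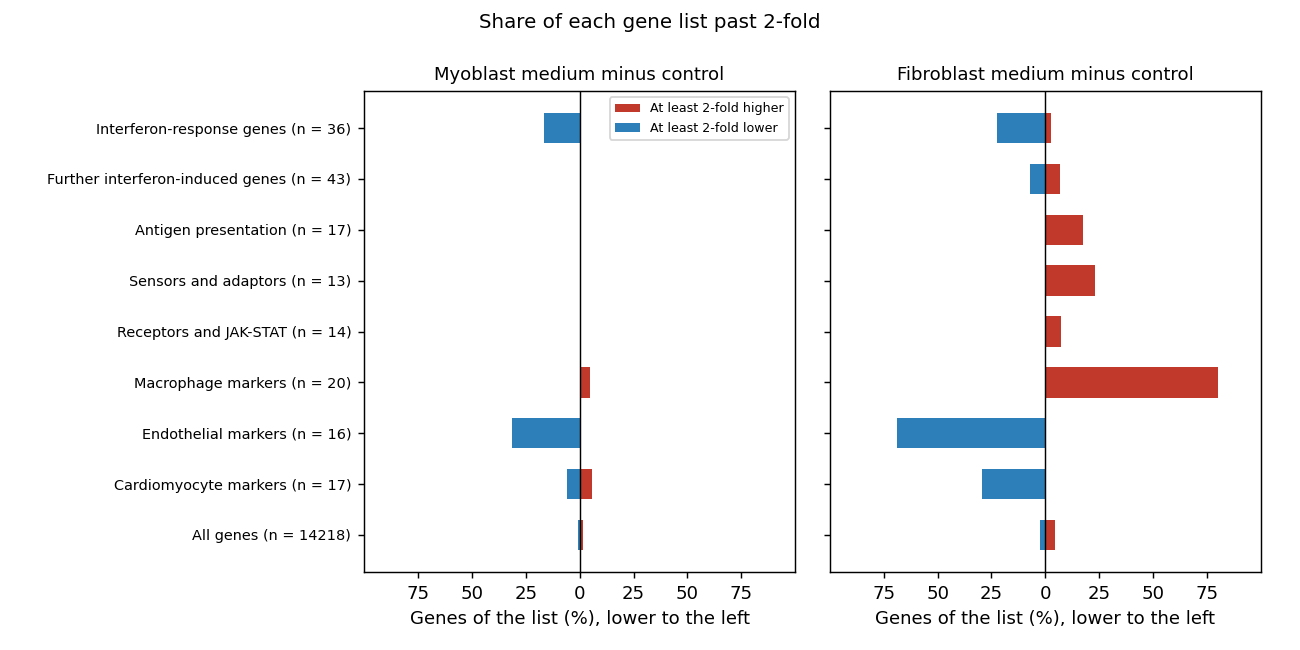
Share of the measured genes of each list that were at least 2-fold higher (right of 0) or lower (left of 0), for myoblast medium minus control and fibroblast medium minus control. The interferon-response genes lie to the left with 16.7% and 22.2%, the macrophage markers reach 80% on the right in fibroblast medium, and the endothelial markers reach 31.3% and 68.8% on the left.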

How the data were processed

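Biotin-labelled target from the total RNA of each of 3 cultures was read on 1 Affymetrix array, per the labels' protocols. The authors used RMA, per the submitters' processing notes. Which software ran it is not given in the sources used here. Deposited values behaved as log2 signals centred by probe set: of 31099 probe sets, 17117 had values on 2 arrays, 8002 on 1 and 5980 on none. Blanks were read as 0, which the sources do not state. Only with values on 2 arrays can the blank be the single middle array. Of the 50 member probe sets, 34 had values on 2 arrays, 14 on 1 and 2 on none.

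The platform annotation gave 20832 probe sets a single symbol, and 20764 of these took a current symbol from the GRCr8 RefSeq table by Entrez ID. A gene's value is the mean of its probe sets. Differences of log2 values were taken for 3 comparisons, and genes at least 2-fold apart were counted. With 1 array per medium no test was made. Every measured member is named. Other lists are given as counts with at most the 3 largest and 3 smallest genes. The members and lists were chosen with earlier results of these data known. The counting steps were tested on simulated data. Alternatives changed the summary of probe sets, the blanks, cross-hybridising probe sets, the scaling and the threshold. Python 3.11.15, NumPy 2.4.6, pandas 2.3.3 and Matplotlib 3.10.9 were used.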

Additional observations from a re-analysis of the deposited data

Results flagged for a closer look

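Rsad2 was singled out because its difference against control ran in opposite directions in the 2 conditioned media, each by more than 1 SD of the added control transcripts. It was 0.25 in myoblast medium and -1.02 in fibroblast medium, on 1 array each, and this contrast was not tested. The value of 0.25 lay inside the range of the added control transcripts, -0.01 to 0.66, and below their median of 0.29. Their SD is a spread about their own centre and not about 0. With arrays centred on the added control transcripts, the difference in myoblast medium was -0.0028, so the opposite direction did not remain.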

How the results depend on the processing

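Counts and medians of the members were recomputed with the median over the probe sets of a gene, with the probe set of widest range, without probe sets ending in _s_at or _x_at, and with arrays centred on the mean of all genes. Under these 4 settings every count was as reported and the medians moved by less than 1 SD of the added control transcripts. Restricting to probe sets with 2 nonblank arrays left 27 members, Irf8 and Ddx60 not among them. Then 5 and 7 members were at least 2-fold lower in myoblast and fibroblast medium than in control, against 1.39% and 4.24% of 9836 genes. Without Irf8, 0 were 2-fold higher in fibroblast medium than in control and 0 were 2-fold lower in myoblast than in fibroblast medium. Centring on the added control transcripts moved the median of all genes to -0.25 in myoblast medium against control and to -0.22 in myoblast against fibroblast medium. Under it 11 members were at least 2-fold lower in myoblast medium than in control, the added ones being Bst2, Ifi27, Ifi44, Oas1a and Parp9, and the median was -0.45. It changed the sign of 9 of 108 member differences, none of them past 2-fold, among them Irf1, Irf5, Stat2 and Ifngr1 in myoblast medium. Centring on the mean of all genes changed the sign of 2, Irf3 in myoblast medium and Ifi35 in fibroblast medium. No called member difference changed sign under the settings tried. At 1.5-fold, 12 members were lower and 0 higher in myoblast medium than in control (2.86% and 3.77% of all genes), 10 lower and 2 higher in fibroblast medium than in control (6.97% and 9.09%), and 2 lower and 1 higher in myoblast than in fibroblast medium (8.34% and 6.65%). At 3-fold the counts were 2 and 0 (0.148% and 0.380%), 1 and 0 (0.992% and 1.84%), and 0 and 0 (1.79% and 0.591%). Adding Ddx58 through the probe set annotated Rig1, a setting chosen after seeing the data, left every count as reported. No paired analysis was possible because each medium had 1 array. The number of arrays limits the precision, and signal over background is unknown in centred values.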
